A study of Mus musculus with 4 samples.

Results

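The cornified envelope and barrier genes are the genes whose products build and seal the outermost layer of the skin. They were taken by symbol from the gene table: the small proline-rich genes (Sprr), the late cornified envelope genes (Lce), Flg, Flg2, Hrnr, Lor, Ivl, Cdsn, Tgm1, Tgm3, Krtdap, Sbsn, Calml3, Dsg1a, Dsc1 and Casp14. They came to 50 of the 32285 genes. RNA of single skin cells was counted in 4 droplet libraries of C57BL/6J female mice aged 6 to 8 weeks, 1 library per group, each pooled from the ear and neck skin of 3 mice. The library that all treated ones were set against was labelled untreated, and the labels do not say whether its mice were shaved or given a vehicle. The MC903 library came from mice given 1 nmol of calcipotriol, a vitamin D analog, in 100 µL of ethanol each day for 9 days. The oxazolone libraries came from mice sensitised to this contact hapten at 3% on back and ear in acetone and mineral oil, then challenged at 1.0% every other day from 7 days later, with skin taken at day 10 or day 16. The labels describe shaving of the neck 1 day before treatment, digestion with collagenase and 2 rounds of dead cell removal. No vehicle library was analysed here, so agent and vehicle cannot be told apart.

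As a keratinocyte moves up from the basal layer, it makes a protein shell under its membrane, the cornified envelope. Transglutaminases cross-link involucrin, loricrin, small proline-rich and late envelope proteins into it, filaggrin packs the keratin inside, and corneodesmosomes hold the dead cells together until proteases cut them. Many of these genes lie side by side in the epidermal differentiation complex, and most are switched on late, in the granular layer. Skin inflammation and hair follicle differentiation are both known to use some of them.

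Of the 50 genes, 41 lay on chromosome 3 between 92080271 and 93333570 (mm10, GENCODE M21). Sbsn (chr7:30751471-30756134) and Krtdap (chr7:30787896-30791097) were neighbours on chromosome 7. The other 7 lay on chromosomes 2 (Tgm3), 10 (Casp14), 13 (Calml3), 14 (Tgm1), 17 (Cdsn) and 18 (Dsc1 and Dsg1a). RefSeq held a promoter for 45 of them, a window of 300 bases with 250 before the start. Both strands were searched for the AP-1 letters TGANTCA, the TATA box letters TATAAA, the Klf-type letters GGGTGTG and the Ets letters CAGGAAG. The AP-1 letters stood in 15 of the 45 promoters (33.3%), against 8.97% of the 27025 genes in the table, and the TATA letters in 20 (44.4%), against 15.7%. The Klf-type letters stood in 4 (8.89%, against 9.05%) and the Ets letters in 5 (11.1%, against 14.8%). By family, the AP-1 letters were in 9 of 14 Sprr promoters, 0 of 20 Lce promoters, both of Lor and Ivl, and both of Krtdap and Sbsn. The 120 bases before the RefSeq start (GRCm38.p6) follow for the 7 genes on which the results turn, with motif matches in capitals. Krtdap (plus strand) is chr7:30787785-30787904 and Sbsn (plus strand) is chr7:30751351-30751470. Sprr1a (minus strand) is chr3:92485882-92486001, Sprr1b (minus strand) is chr3:92438780-92438899 and Sprr2a3 (plus strand) is chr3:92285184-92285303. Lor (minus strand) is chr3:92083143-92083262 and Ivl (minus strand) is chr3:92573736-92573855.
Krtdap: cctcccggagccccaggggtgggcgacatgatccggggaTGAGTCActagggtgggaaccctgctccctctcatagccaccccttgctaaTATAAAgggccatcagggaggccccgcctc
Sbsn: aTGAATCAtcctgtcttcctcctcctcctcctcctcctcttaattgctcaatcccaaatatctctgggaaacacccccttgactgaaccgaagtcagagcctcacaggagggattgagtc
Sprr1a: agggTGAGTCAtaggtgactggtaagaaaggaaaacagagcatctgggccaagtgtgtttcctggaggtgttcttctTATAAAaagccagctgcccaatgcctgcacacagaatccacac
Sprr1b: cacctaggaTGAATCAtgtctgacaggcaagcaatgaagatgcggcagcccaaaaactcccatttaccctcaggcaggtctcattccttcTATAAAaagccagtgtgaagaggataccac
Sprr2a3: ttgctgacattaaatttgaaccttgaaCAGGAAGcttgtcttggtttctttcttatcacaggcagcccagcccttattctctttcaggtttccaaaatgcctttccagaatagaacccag
Lor: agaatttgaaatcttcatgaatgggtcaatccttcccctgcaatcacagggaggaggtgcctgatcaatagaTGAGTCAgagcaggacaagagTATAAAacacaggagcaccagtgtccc
Ivl: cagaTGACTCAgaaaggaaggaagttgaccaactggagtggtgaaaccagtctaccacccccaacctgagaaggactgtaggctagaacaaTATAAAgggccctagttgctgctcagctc
The AP-1 match of Lor began 48 bases before the start, that of Krtdap 81, and those of Sprr1b, Sprr1a, Ivl and Sbsn between 111 and 119. Sprr2a3 had neither AP-1 nor TATA letters in these bases, and its RefSeq start lay upstream of the start of the gene model. No printed match of one motif overlapped a match of another, and a match describes letters and not a bound site.

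After filtering, 25989 cells were kept, of which 3428 were keratinocyte-like: 1872 of 7221 in the untreated library (25.9%), 1332 of 7694 (17.3%) and 104 of 7371 (1.41%) in those of oxazolone day 10 and day 16, and 120 of 3703 (3.24%) in the MC903 library. Library totals ran from 73054242 to 119717836 unique transcript counts (UMIs), and the median per keratinocyte-like cell was 14324.5, 21868.5, 26199.5 and 42475 in the order untreated, day 10, day 16 and MC903. Libraries shared 5 to 16 cell barcodes per pair. With 1 library per group there was no replicate, so no difference was tested, and every interval is an exact 95% interval of counting error alone. Levels are UMIs per 1000000 UMIs of the cell set (CPM) and are compared between cell sets or libraries for the same gene or sum, not between genes. A gene was measured in a pair of libraries with at least 30 UMIs in the pair, and called higher or lower at 2-fold.

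The keratinocyte-like cells fell into 20 clusters, grouped without using the 50 genes, and 16 of these drew at least 80% of their cells from 1 library. Cell kind and library were thus largely confounded, and fewer cells of a kind cannot be told apart from less RNA per cell in the sums over all keratinocyte-like cells. Untreated skin gave most of the basal-like (509 cells) and suprabasal-like cells (87), and oxazolone day 10 gave most of the inner root sheath-like (384) and hair matrix-like and shaft-like cells (208). Outer root sheath-like and follicle stem-like cells (269 untreated, 279 at day 10) and unnamed cluster K2 (177 and 66) held at least 50 cells in both of these libraries. Unnamed cluster K7 held 118 cells, all untreated. Its leading genes mixed upper follicle markers (Defb6, Gata6) with suprabasal markers (Skint3, Calm4, Krt77). They also included the granular-stage marker Cst6 and Sprr1a.

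No cluster was named granular-stage. In K7 these markers scored second (mean log2 1.06 over the mean of the clusters), after the upper follicle markers (2.24). In the upper follicle-like cluster K17 they were also second (0.735 after 0.983). Among all keratinocyte-like cells, Kprp had 0 UMIs, Rptn and Alox12b 1 each, and Sdr9c7 3, while Nccrp1 had 16, Aloxe3 42, Klk7 100, Asprv1 293, Abca12 838 and Cst6 11209. Of the keratinocyte-like cells with at least 20 UMIs of Krt1, Krt10, Krt5 and Krt14, only 11 had a share of at least 0.5 from Krt1 and Krt10, the keratins of the upper layers. Even in the suprabasal-like cluster, 73 of 91 cells had a share below 0.1. Granular markers were thus counted unevenly, and few cells had mainly upper-layer keratins.

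Few of the genes were well counted. Only 14 of the 50 genes had at least 30 UMIs over all kept cells, 45 had at least 1, and Sprr3, Sprr4, Lce1k, Lce3b and Lce3e had 0. The 21 late envelope genes held 82 UMIs together, 22 of them in keratinocyte-like cells. Flg, the filaggrin gene, had 6 UMIs, Flg2 3 and Hrnr, which encodes hornerin, 7, with 2 of these 16 in keratinocyte-like cells. The 15 Sprr genes held 1151 UMIs, 738 of them from Sprr1a. Krtdap, which encodes a secreted protein of differentiating keratinocytes, had 11283 UMIs, 10943 of them in keratinocyte-like cells. Sbsn, the secreted protein suprabasin, had 8976 (62.6% in keratinocyte-like cells) and Calml3, a calmodulin-like calcium sensor, 5782 (82.5%). Tgm1, the transglutaminase that anchors the envelope to the membrane, had 3316 UMIs, of which 1.93% were in keratinocyte-like cells. Sprr2a1 and Sprr2a2 shared all 90-base stretches of their 3′ ends, and Sprr2a3 shared 42.3% of its own with Sprr2a2. Counts of these 3 genes are therefore uncertain. Counts of Tgm1, whose locus overlaps the antisense gene Gm49067, and of Sbsn, which overlaps Tmem147os on the same strand, carry the same limit where counting did not use strand or splicing.

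The summed level of the 50 genes is given next for each library and each kind. Over all keratinocyte-like cells untreated skin had 429 CPM (422 to 437), the oxazolone libraries 334 (day 10) and 318 (day 16), and the MC903 library 276. Cluster K7 held the highest sum of any set of at least 50 cells, 2064 CPM (1998 to 2133). Next came cluster K2 at oxazolone day 10 with 1393 CPM, untreated suprabasal-like cells with 1034, untreated outer root sheath-like cells with 784 and untreated basal-like cells with 526. Inner root sheath-like cells at day 10 had 91.5 CPM. Within the untreated library alone, the sums by kind spanned a wider range than the sums over all keratinocyte-like cells spanned between libraries.

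**Figure D1:**
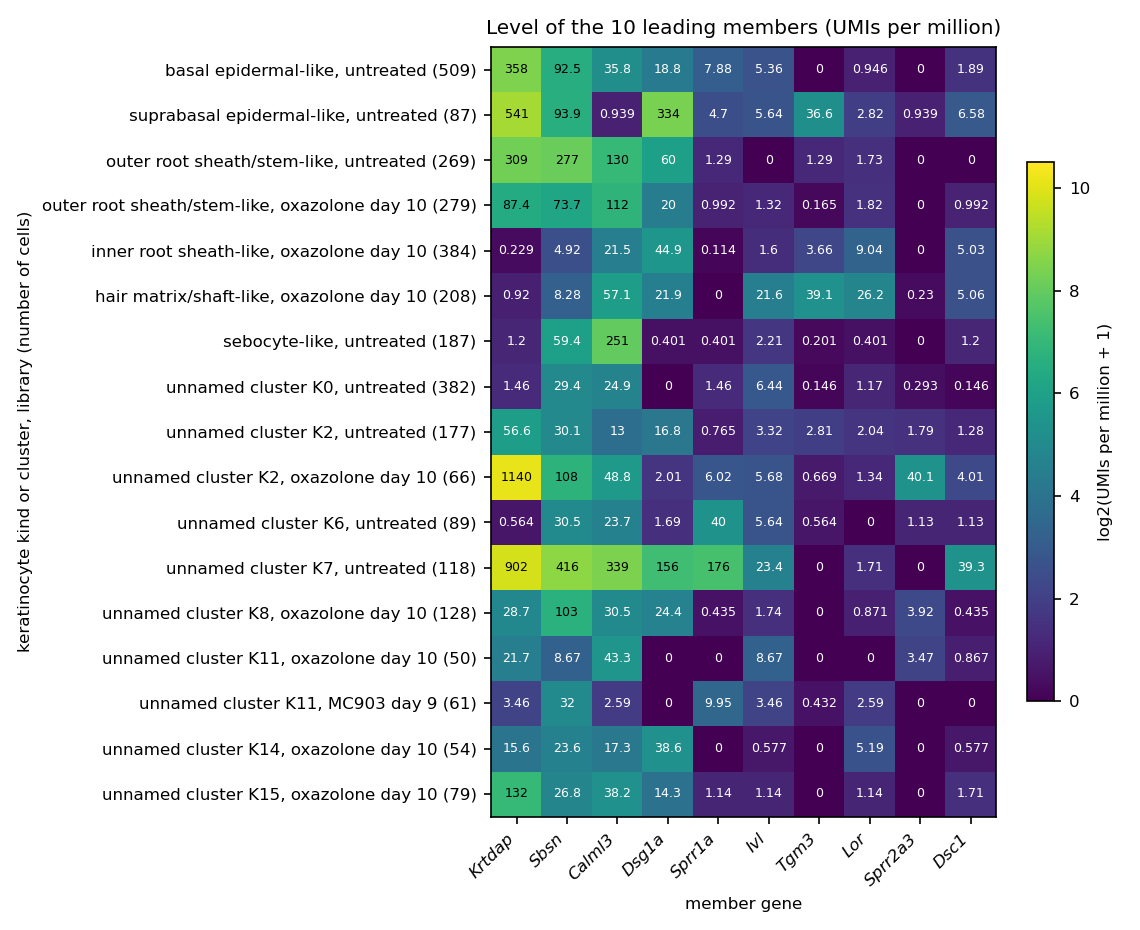
Heat map of the level (CPM, printed in each cell, colour on a log2 scale after adding 1) of the 10 envelope and barrier genes with most keratinocyte UMIs, by cell kind or cluster and library with at least 50 cells. Krtdap reached 1140 in cluster K2 at oxazolone day 10 and 0.229 in inner root sheath-like cells, while Tgm3 and Lor were high in hair matrix-like cells.

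The secreted and calcium-binding products made up most of the UMIs and differed in where they were found. In untreated skin Krtdap stood at 902 CPM in K7 (73 of 118 cells), 541 in suprabasal-like cells (16 of 87 cells, 43.1% of the UMIs from 1 cell), 358 in basal-like and 309 in outer root sheath-like cells. It was at 1.20 CPM in sebocyte-like cells and 1.46 in unnamed cluster K0. Krtdap was thus found in epidermal, K7 and outer root sheath cells, and was near 0 in the gland cells of the same library. Calml3 had another order in untreated skin, with 339 CPM in K7, 251 in sebocyte-like cells (150 of 187 cells), 130 in outer root sheath-like cells and 0.939 in suprabasal-like cells. Sbsn stood at 416 CPM in K7, 277 in outer root sheath-like, 93.9 in suprabasal-like and 92.5 in basal-like cells. The counting intervals of Sbsn in suprabasal-like and basal-like cells overlapped.

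The corneodesmosome genes differed in where they were highest. Among untreated sets of at least 50 cells, this was suprabasal-like cells for Dsg1a and K7 for Dsc1. Dsg1a, a desmoglein that joins upper epidermal cells, was at 334 CPM in untreated suprabasal-like cells (75 of 87 cells), 156 in K7, 60.0 in outer root sheath-like cells and 18.8 in basal-like cells. It was also at 44.9 CPM in inner root sheath-like cells at day 10, where 161 of 384 cells held a UMI. Dsc1, its desmocollin partner, reached 39.3 CPM in K7, which held 69 of its 103 untreated keratinocyte UMIs, against 7 in suprabasal-like cells. Both desmosomal cadherins were thus counted in hair follicle kinds as well as in epidermal ones. Cdsn, corneodesmosin, had 10 UMIs in all keratinocyte-like cells.

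The envelope proteins and their cross-linking enzymes were also found in hair-forming cells. Tgm3, the transglutaminase of hair shaft and epidermis, was at 39.1 CPM in hair matrix-like and shaft-like cells of oxazolone day 10 (92 of 208 cells) and at 36.6 CPM in untreated suprabasal-like cells (20 of 87). Lor, loricrin, was at 26.2 CPM in the hair matrix-like cells (57 of 208) and 9.04 in inner root sheath-like cells. Ivl, involucrin, was at 21.6 CPM in the hair matrix-like cells and 23.4 in untreated K7. Of the Sprr genes, Sprr1a was at 176 CPM in K7, in 26 of 118 cells, and these held 68.1% of its untreated keratinocyte UMIs. Sprr1a was a leading gene of K7, although it was not used for clustering, so this level describes the cluster. Casp14, the caspase that helps break down filaggrin, had 124 keratinocyte UMIs and reached 6.84 CPM in K7.

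A view without clusters gave levels along the keratin share, a range and not a cell type. In untreated skin the 23 cells with a share of 0.1 to below 0.5 had Krtdap at 933 CPM (848 to 1025), against 158 in the 1556 cells below 0.1. Dsg1a was at 234 against 26.0 CPM, and the sum of the 50 genes at 2077 against 379. At oxazolone day 10 Krtdap was at 749 CPM in the 14 cells of the upper range and at 229 in the 706 below it, but 1 cell held 56.3% of the former UMIs. Of the other genes at day 10, Sbsn was at 26.7 CPM in the upper range against 65.8 below it. Calml3 was at 57.6 against 69.5, and the intervals of Calml3 and of Dsg1a overlapped. The day 10 sum was at 1071 CPM in the upper range against 408 below it, with all 84 upper-range Sprr2a3 UMIs in 2 cells. A Krtdap UMI was in 3 of the 14 upper cells and 165 of the 706 below. The levels of Krtdap and of the sum were thus higher in the upper range in both libraries. At day 10 not every gene was, and few cells carried the difference. Within the range below 0.1, the libraries were set side by side, but this did not even out the cell kinds. Too few keratin UMIs left out 610 of the 1332 day 10 cells and 284 of the 1872 untreated ones. The range also held 89 K7 cells, all untreated, and the part of this cell mix in the ratios below was not tested. At day 10 over untreated, 3 of 12 measured genes were higher (12.7% of all genes) and 2 lower (8.37%). The higher ones were Sprr1b (56 UMIs against 0), Sprr2a3 (3.54) and Lor (1.38), and the lower ones Sprr1a (-2.45) and Tgm3 (-2.19). At day 16, 0 of 10 were higher (9.94%) and 2 lower (15.1%), Tgm3 (-1.32) and Dsc1 (0 UMIs against 69). With MC903, 2 of 10 were higher (5.62%), Sprr1a (1.45, from 6 of 103 cells) and Sbsn (1.31). Another 5 were lower (16.2%), led by Dsg1a (-4.74) and Krtdap (-3.60). Day 16 over day 10 gave 1 of 11 higher (3.56%) and 3 lower (12%), MC903 over day 10 gave 2 of 11 higher (7.33%) and 6 lower (23.1%), and MC903 over day 16 gave 2 of 6 higher (12%) and 3 lower (14.1%).

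At oxazolone day 10, 5 envelope genes were higher and 2 lower than in untreated skin over all keratinocyte-like cells, of 13 measured. Of all 15319 measured genes 14.5% were higher and 9.65% lower. Sprr1b, a small proline-rich envelope protein, was at 0.0674 CPM in untreated skin and 1.83 at day 10, with 0 UMIs in the other 2 libraries. Its log2 ratio was 4.76 (2.84 to 7.84), from 57 UMIs against 2. Sprr2a3 was at 0.404 and 6.95 CPM, a log2 ratio of 4.10. Sprr1a, of the same family, was lower, with 15.2 CPM untreated and 1.67 at day 10, a log2 ratio of -3.19. The Sprr sum was 15.8 CPM untreated and 11.7 at day 10, with members on both sides of 2-fold. With kinds weighted as in untreated skin, over kinds with at least 10 cells in both libraries, the direction turned for Sprr1a (1.70) and for the Sprr sum (from -0.43 to 4.43). This weighting left out clusters K7 and K6 and basal-like cells, which had too few cells at day 10. They held 308, 71 and 50 of the 452 untreated Sprr1a UMIs, so the weighted ratio does not cover the cells with most of that gene.

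Another 3 genes of this pair were higher and Sbsn was lower. Lor was at 1.18 CPM untreated and 7.08 at day 10, a log2 ratio of 2.59 (2.07 to 3.14). Tgm3 was at 1.92 and 6.60 CPM (1.78, 1.35 to 2.23), and Tgm1 at 0.303 and 1.51 CPM (2.31, 1.27 to 3.53). These higher levels lay largely in hair-forming cells, of which the untreated library had almost none: hair matrix-like cells held 170 of the 206 Tgm3 UMIs, 114 of the 221 Lor UMIs and 26 of the 47 Tgm1 UMIs at day 10. Without inner root sheath-like and hair matrix-like cells, an alternative chosen after seeing the data, 2 genes were higher, the log2 ratio of Lor was 0.39 and that of Tgm3 was -3.12. With weighted kinds that of Lor was -0.52. Sbsn was at 93.9 and 46.3 CPM, a log2 ratio of -1.02 (-1.11 to -0.93), which sits at the threshold. Krtdap (-0.15), Ivl (-0.11), Dsc1 (-0.06), Dsg1a (-0.21), Casp14 (-0.56) and Calml3 (-0.61) lay between. Neutrophil markers in the same cells summed to 0.977 CPM untreated and 104 at day 10, with 5 and 7 of 7 markers seen, and their part was not tested. The median log2 ratio of the 13 was -0.11, against 0.16 over all measured genes.

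**Figure D2:**
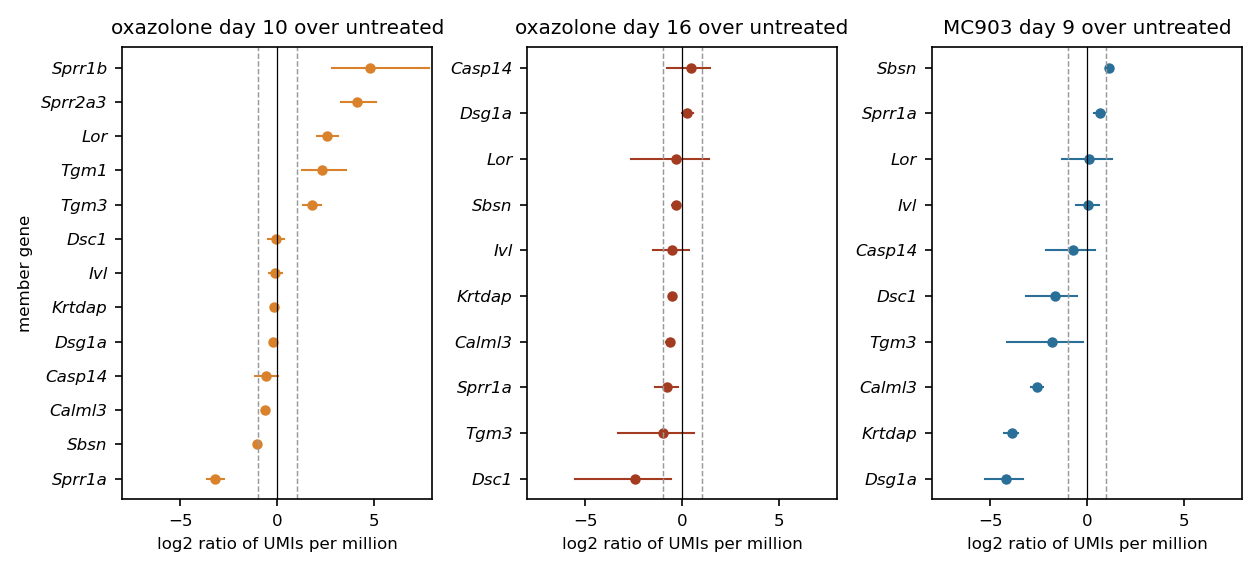
Log2 ratio of each measured envelope and barrier gene in all keratinocyte-like cells, 1 panel per treated library over untreated, with bars for the 95% counting interval and dashed lines at 2-fold. Sprr1b (4.76) and Sprr2a3 (4.10) are highest at oxazolone day 10, and Dsg1a (-4.18) and Krtdap (-3.89) are lowest with MC903.

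At oxazolone day 16, measured against the same untreated library, 0 of 10 measured genes were higher (10.8% of all genes) and 2 were lower (15.2%). Dsc1 had 2 UMIs against 103, a log2 ratio of -2.44 (-5.51 to -0.56). Tgm3 had 3 against 57 (-1.01, -3.33 to 0.61), an interval that spans no difference. These calls rested on 104 keratinocyte-like cells, in which neutrophil markers summed to 284 CPM against 0.977 untreated, and their part was not tested. Krtdap was at 125 CPM against 181 (-0.54), and 1 cell held 45% of its day 16 UMIs. Sprr1a was at 8.92 CPM against 15.2 (-0.77), with 1 cell holding 92.9%. Without the cell richest in each gene, an alternative also chosen after seeing the data, the log2 ratio was -1.34 for Krtdap and -4.33 for Sprr1a, and 4 genes were lower.

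With MC903, again over the shared untreated library, 1 of 10 measured genes was higher (5.57% of all genes) and 5 were lower (16.4%). Sbsn was at 209 CPM against 93.9, a log2 ratio of 1.16, with a UMI in 92 of 120 cells against 879 of 1872. Sebocyte-like cells held 1012 of its 1148 MC903 UMIs, and their level was 432 CPM against 59.4 in untreated sebocyte-like cells. Within cluster K1, one of the sebocyte-like clusters, it was 569 CPM in 22 cells against 65.3 in 143 cells. Without the cell holding most Sbsn UMIs, the log2 ratio over all keratinocyte-like cells was 0.98 and the gene was no longer past 2-fold.

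The lower genes with MC903 were Dsg1a, Krtdap, Calml3, Tgm3 and Dsc1. Dsg1a had 10 UMIs against 980 (1.82 and 33 CPM), a log2 ratio of -4.18 (-5.24 to -3.29). Krtdap was at 12.2 CPM against 181, a log2 ratio of -3.89 (-4.26 to -3.55). Only 3 of 120 MC903 cells held a Krtdap UMI and 1 cell held 88.1% of them, and without that cell the log2 ratio was -6.89. With kinds weighted as in untreated skin, the direction turned for Krtdap (4.39) and 1 gene in place of 5 was lower. The weighting used kinds with at least 10 cells in both libraries, which were sebocyte-like cells and unnamed cluster K11. Sebocyte-like cells held 6 of the 5387 untreated Krtdap UMIs and 59 of the 67 MC903 UMIs. The weighted ratio thus leaves out the epidermal kinds, which held most untreated Krtdap UMIs together with K7 and root sheath cells. Calml3 was at 15.1 CPM against 89.9 (-2.57), and in sebocyte-like cells of cluster K1 at 33.3 against 288. Tgm3 had 3 UMIs against 57 (-1.81) and Dsc1 6 against 103 (-1.67). Of the 120 MC903 cells, 61 were in unnamed cluster K11, led by Cyp24a1, and 37 were sebocyte-like, while 1 was basal-like and 0 were suprabasal-like. Neutrophil markers summed to 38.3 CPM in the MC903 cells against 0.977 untreated, and their part was not tested. Fewer cells of the epidermal kinds and less RNA per cell within them cannot be told apart.

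The share of cells with a UMI was compared after thinning each cell to 1000 UMIs, which left out 33, 14, 2 and 1 cells in the order untreated, day 10, day 16 and MC903. A Krtdap UMI was then found in 9.95%, 4.25% and 2.94% of keratinocyte-like cells and in 0 of 119 with MC903, which allows a share of up to 2.52% by the limit of 3 counts, or 3.05% by the Clopper-Pearson bound. Without thinning, the shares were 21.1%, 13.3%, 7.69% and 2.5%. For Sbsn the thinned shares were 9.46%, 3.26%, 6.86% and 14.3%. Fibroblast-like cells, used as a background for Krtdap, had thinned Krtdap shares of 0.172%, 0%, 0.304% and 0.188% and Sbsn shares of 1.03%, 1.75%, 4.26% and 1.32%, at median depths of 12617, 27519, 36140.5 and 24156.5 UMIs. With MC903 the depth after thinning could not set the Krtdap share of keratinocyte-like cells above or below that background. For Sbsn fibroblast-like cells were no clean background: at day 16 they held 354 of its 844 UMIs, against 236 in keratinocyte-like cells, and the thinned shares of both had overlapping intervals.

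Treated libraries were also set against each other. From oxazolone day 10 to day 16, 1 of 13 measured genes was higher (3.95% of all genes), which was Sprr1a (2.42), from 2 of 104 cells of which 1 held 92.9% of its day 16 UMIs, and 4 were lower (10.1%): Sprr2a3 (-4.45), Lor (-2.89), Tgm3 (-2.79) and Dsc1 (-2.39). MC903 over day 10 gave 2 of 13 higher (8.1%), Sprr1a (3.85) and Sbsn (2.18), and 8 lower (24.4%), the lowest being Dsg1a (-3.97) and Krtdap (-3.74). MC903 over day 16 gave 2 of 6 higher (11.7%), Sbsn (1.48) and Sprr1a (1.43), and 3 lower (16.7%): Dsg1a (-4.45), Krtdap (-3.35) and Calml3 (-1.95). In the MC903 library Sprr1a UMIs came from 6 of 120 cells.

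Within kinds, the 2 cell sets with at least 50 cells at both day 10 and untreated gave opposite directions for Krtdap and Sbsn. In outer root sheath-like and follicle stem-like cells, 0 of 4 measured genes were higher (9.06% of all genes) and 3 lower (6.99%). Krtdap was at 309 CPM in untreated cells and 87.4 at day 10 (-1.82, -1.99 to -1.66). Sbsn was at 277 and 73.7 CPM (-1.91), and Dsg1a at 60.0 and 20 (-1.58). Calml3 was at 130 and 112 CPM (-0.22). Most untreated cells of this kind were in cluster K3 and most day 10 cells in K12, with median depths of 8093 and 20502 UMIs, and the part of either in these ratios was not tested.

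In unnamed cluster K2, led by Krt16, Krt6a, Stfa3 and histone genes, 5 of 7 measured genes were higher at day 10 (6.27% of all genes) and 1 was lower (9.2%). Krtdap was at 56.6 CPM in untreated cells and 1140 at day 10, a log2 ratio of 4.33 (4.14 to 4.53), with a UMI in 33 of 177 and 48 of 66 cells. Sbsn was at 30.1 and 108 CPM (1.85), and Calml3 at 13.0 and 48.8 (1.91). Sprr2a3 was at 1.79 and 40.1 CPM (4.49), in 15 of 66 day 10 cells with 45% of UMIs from 1 cell. Sprr1b had 0 UMIs untreated and 53 at day 10, at least 23.1-fold higher against a floor of 3 UMIs in the untreated set. Its 53 UMIs came from 11 cells, 1 of which held 49.1%, and without that cell it had too few UMIs to be measured. Dsg1a was lower, with 6 UMIs against 66 (-3.07). K2 at day 10 held 3411 of the 5098 Krtdap UMIs, 120 of the 217 Sprr2a3 UMIs and 53 of the 57 Sprr1b UMIs of its library. Neutrophil markers summed to 1.02 CPM in untreated K2 and 185 at day 10, or to 0.255 and 11.4 without S100a8 and S100a9, and their part was not tested. The leading genes of K2 were taken over its cells of all libraries. In K2, 8 of 9 measured wound-type keratins and alarm genes were higher at day 10 and 1 was lower. Krt16, Krt6a and Stfa3 are on that list. Median depths were 22562 UMIs untreated and 45266.5 at day 10, and the part of cell state or depth was not tested.

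**Figure D3:**
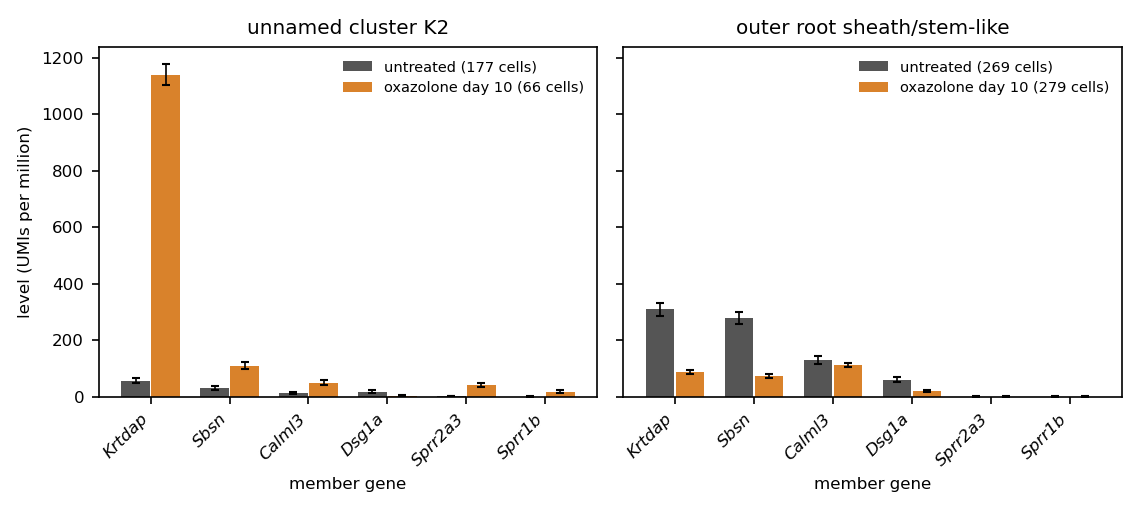
Level (CPM) of 6 envelope and barrier genes in unnamed cluster K2 (177 untreated and 66 day 10 cells) and in outer root sheath-like and follicle stem-like cells (269 and 279), with exact 95% Poisson bars. Krtdap goes from 56.6 to 1140 in K2 and from 309 to 87.4 in the root sheath cells.

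In cluster K11, the one set with at least 50 cells in both MC903 (61) and day 10 (50), 3 genes were measured. Sbsn was higher with MC903, at 32.0 CPM against 8.67 (1.88), where 4.39% of all genes were higher. Krtdap (8 UMIs against 25, -2.65) and Calml3 (6 against 50, -4.06) were lower, where 6.66% of all genes were.

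Other genes of the barrier pathway were counted by list over all keratinocyte-like cells, beside the 14.5% of all genes higher and 9.65% lower at day 10. At oxazolone day 10, 3 of 17 measured transcription regulators of cornification were higher and 2 lower, with Prdm1, a repressor used in terminal differentiation, at 56.4 CPM against 5.79 (3.28) and Klf4, a barrier-forming factor, at 67.9 against 255 (-1.91). Of 19 barrier lipid genes, 4 were higher and 6 lower, among them the ceramidase gene Acer1 (-3.29) and the sphingolipid synthesis gene Sptlc3 (-3.04). Acer1 was also among the leading genes of sebocyte-like cluster K1. Sebocyte-like cells were 26 of 1332 at day 10 and 187 of 1872 untreated, and the part of this cell mix was not tested. Of 14 barrier proteases, inhibitors and modifying enzymes, 7 were higher and 4 lower. Padi3, the hair follicle deiminase, had 449 UMIs against 1 (8.74, 6.25 to 14.05), and the protease inhibitor gene Cst6 was at -4.23. Cst6 was also among the leading genes of K7, whose 118 cells were all untreated. Inner root sheath-like cells were 384 at day 10 and 2 untreated. The part of this cell mix in both ratios was not tested. Layer keratins were mostly lower, 5 of 8, led by Krt2 (-5.77), with 1 higher. Dissociation stress genes were lower in 10 of 12, with 0 higher, and their part in the envelope genes' ratios was not tested.

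With MC903, where 5.57% of all genes were higher and 16.4% lower, 1 of 17 regulators was higher and 6 lower, among them Grhl3 (3 UMIs against 171, -3.40, -5.69 to -1.83), Prdm1 (-2.67), Maf (-2.56) and Hopx (-1.97). Of 13 desmosome and scaffold genes 0 were higher and 5 lower, among them the desmoglein gene Dsg3 (-3.41) and the envoplakin gene Evpl (-3.12). Of 16 barrier lipid genes 3 were higher and 3 lower, with Elovl4, which extends very long fatty acids, at 306 CPM against 8.01 (5.26). Elovl4 was also among the leading genes of sebocyte-like cluster K1. Sebocyte-like cells were 37 of 120 with MC903 and 187 of 1872 untreated, and the part of this cell mix was not tested. Layer keratins were lower in 7 of 8. Cyp24a1, the vitamin D-degrading enzyme, was at 174 CPM in the MC903 library and had 0 UMIs in untreated keratinocyte-like cells, and stress genes were lower in 10 of 12.

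Within K2 at day 10, where 6.27% of all genes were higher and 9.2% lower, regulators were higher in 3 of 14 and lower in 0, including Zfp750 (3.00), a terminal differentiation factor. Barrier proteases were higher in 4 of 7 and lower in 0, with the kallikrein genes Klk10 at 51.5 CPM against 0.255 (7.66, 5.16 to 12.97) and Klk8 at 31.8 against 1.02 (4.96). Lipid genes were higher in 4 of 12, including the cholesterol sulfotransferase gene Sult2b1 (4.12), and lower in 1. The suprabasal keratin Krt1 was at 251 CPM against 9.19 (4.77). Stress genes were lower in 10 of 12 here too.

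Tgm1 was counted mostly outside keratinocyte-like cells, as was Cdsn, with 10 of 54 UMIs inside them. It was at 86.4 CPM (61.5 to 118) in basophil-like cells at oxazolone day 16 and 81.7 (60.3 to 108) with MC903, from 39 and 48 UMIs in 15 of 58 and 18 of 66 cells. Neutrophil-like cells at day 16 were at 45.3 CPM (43.0 to 47.6) and held 1474 of the 2304 Tgm1 UMIs of that library. At day 10 they were at 32.4 CPM and with MC903 at 33.9. Macrophage-like and monocyte-like cells at day 16 were at 20.2 CPM. Keratinocyte-like cells of the same libraries were at 1.51 (day 10), 0.956 (day 16) and 0.911 CPM (MC903). After thinning to 1000 UMIs, 4.04% of day 16 neutrophil-like cells held a Tgm1 UMI, and 0 of 102 keratinocyte-like cells did. The latter allows up to 2.94% by the limit of 3 counts, or 3.55% by the Clopper-Pearson bound. At day 10 the shares were 2.55% and 0 of 1318. With MC903 the order was the other way, 1.09% (0.226 to 3.17) of neutrophil-like and 1.68% (0.204 to 5.94) of keratinocyte-like cells, with overlapping intervals. Fibroblast-like cells held 111 of the 334 Tgm1 UMIs with MC903, against 80 in neutrophil-like and 48 in basophil-like cells. They held 96 of 633 at day 10 and 102 of 2304 at day 16. The untreated library held 45 Tgm1 UMIs in all, 20 of them in fibroblast-like cells. It had only 7 neutrophil-like and 9 basophil-like cells, too few for a level.

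**Figure D4:**
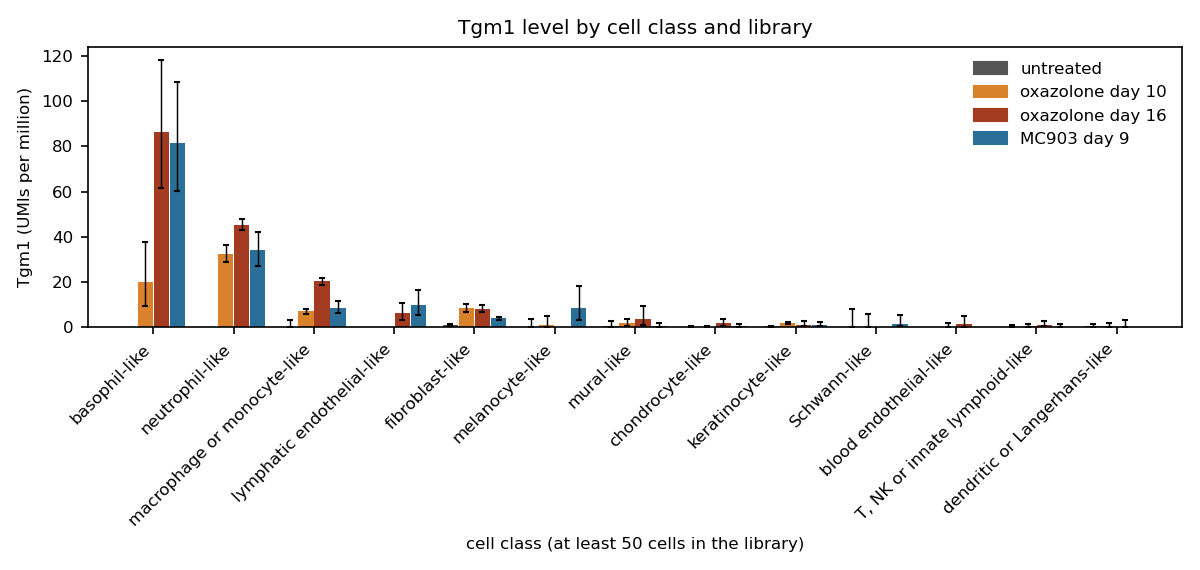
Tgm1 level (CPM) by cell class with at least 50 cells and by library, with exact 95% Poisson bars. Basophil-like (86.4 at oxazolone day 16) and neutrophil-like cells (45.3) stand above keratinocyte-like cells (0.956).

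Sbsn and Calml3 were also counted in chondrocyte-like cells. Sbsn was at 62.0 CPM in the untreated library (196 of 901 cells) and 47.6 with MC903 (114 of 643 cells). Calml3 was at 49.7 CPM at day 10, in 174 of 487 cells. Krtdap was not among these highest levels outside keratinocytes.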

How the data were processed

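Single-cell RNA was counted in 4 libraries, each a pool of 3 mice. The deposited counts are UMIs per gene and cell barcode, not normalized. Per the submitters' processing notes they were made with Cell Ranger 8.0 on mm10, while per the file headers version 7.2.0 made the matrices of untreated skin and oxazolone day 10, and version 8.0.0 the rest. The effect of the version was not tested, and it cannot be told apart from the group where it differs. The smallest barcode total was 500.

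A cell was kept if it had 300 genes or more and no more than 15% of its UMIs from mitochondrial genes. Scrublet scores, run per library, removed the top 0.8% of barcodes per 1000 barcodes as doublets. Cells were clustered with scanpy 1.11.5 (2000 variable genes, 30 components, 15 neighbours, Leiden resolution 1), and keratinocyte-like cells again with 20 components, both times without the 50 genes. A cluster was named from marker genes, with at least 3 of them seen in 20% of its cells, and stayed unnamed where more of another kind's markers stood among its 10 leading genes. One keratinocyte cluster of 65 cells with Ptprc was set aside. Names were rebuilt here and may differ from those of the study.

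Counts were summed per cell set and library and divided by the set's total, per 1000000. Ratios needed 30 UMIs in the pair and 50 cells in both libraries, levels 10 cells. Intervals are exact Poisson, Clopper-Pearson binomial or conditional binomial at 95%. The calling of ratios was tested on simulated data: for oxazolone day 10, 50 of 50 genes were recovered at each of 4 simulated folds, over 14806 genes, with 0 of 12268 unchanged genes called. For day 16 (13631 genes) 49 of 50 were recovered at a fold of 0.125, 48 at 0.25 and 50 at 4 and 8, with 188 unchanged genes called (1.53%). For MC903 (13719 genes) 50 of 50 were recovered at each fold, with 76 called (0.619%). The simulation drew Poisson counts from the untreated sum, and these results cover genes with at least 50 untreated UMIs. It held no spread between cells and no change of cell mix. It therefore cannot speak for genes with fewer untreated UMIs, such as Sprr1b and Sprr2a3, or for ratios that rest on few cells.

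The members and all gene lists were chosen with earlier results of these data known. Values are given for the 10 members with most keratinocyte UMIs, up to 6 measured members per comparison by size of log2 ratio, up to 4 genes per other list, and up to 5 highest levels outside keratinocytes. Other genes are given by counts, or named after their values were seen. Promoters came from RefSeq (GRCm38.p6). Alternatives covered cell filters, doublets, clustering, thresholds, free RNA, scaling and cell mix.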

Additional observations from a re-analysis of the deposited data

Results flagged for a closer look

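Krtdap and Sbsn stood out because the same pair of libraries, oxazolone day 10 and untreated, gave opposite directions in 2 sets of keratinocyte-like cells. For Krtdap the log2 ratio was 4.33 in unnamed cluster K2 and -1.82 in outer root sheath-like and follicle stem-like cells, a difference of 6.15. For Sbsn it was 1.85 and -1.91, a difference of 3.76. With 1 library per group the difference was not tested.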

How the results depend on the processing

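No paired analysis was possible because each group had 1 library. Of 205 values of the 23 called ratios under the alternatives, 201 kept their sign and 196 stayed past 2-fold. Ratios that could no longer be measured under an alternative are not among these 205 values. The count of genes lower at day 16 (2) was 1 when clustering used the member genes, with at most 10% mitochondrial UMIs, with at least 1000 UMIs and 500 genes per cell, or with 100 UMIs in the pair. It was 4 at 1.5-fold, and 0 when the interval had to lie beyond 2-fold. At day 10 the genes higher (5) were 3 at 100 UMIs, and the genes lower (2) were 1 without doublet removal, with the interval rule or with kinds weighted as in untreated skin. With MC903 the genes higher (1) were 2 at 1.5-fold or with weighted kinds, and the genes lower (5) were 3 with the interval rule and 1 with weighted kinds. With weighted kinds 1 gene was higher at day 16. In K2 the gene lower (1) was 0 with the stricter cell filter or 100 UMIs. The untreated sum of 429 CPM was 416 without doublet removal and 442 with 5% free RNA taken off, and K7's 2064 was 2300.3 with the stricter cell filter and 2157 with free RNA off. Krtdap at 933 CPM in the untreated keratin share of 0.1 to below 0.5 was 759.8 without doublet removal. The untreated Krtdap share of 9.95% was 21.1% without thinning and 15.2% with thinning to a greater depth.

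With weighted kinds, which used kinds with at least 10 cells in both libraries, the log2 ratio of the Sprr sum at day 10 (-0.43) was 4.43, that of Sprr1a was 1.70, that of Lor -0.52, and that of Krtdap with MC903 4.39. The kinds left out held most of the untreated UMIs of Sprr1a and Krtdap. Of the measured wound-type keratins and alarm genes, 8 of 11 were higher at day 10 (14.5% of all genes) and 2 lower (9.65%). At day 16, 5 of 9 were higher (10.8%) and 2 lower (15.2%). With MC903, 2 of 9 were higher (5.57%) and 6 lower (16.4%). With free RNA off, the higher count was 5 at day 10. With weighted kinds the counts were 1 lower at day 10, 2 higher and 1 lower at day 16, and 2 lower with MC903, and without doublet removal 1 was lower at day 16.

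Both remaining alternatives were added after seeing the data. Without inner root sheath-like and hair matrix-like cells, 2 genes were higher at day 10, the Sprr sum's log2 ratio was 0.34, that of Tgm3 was -3.12, 4 genes were lower at day 16 and 1 wound-type gene was. Without the cell holding most UMIs of each gene, 4 genes were lower at day 16, 0 were higher with MC903, the Sprr sum's ratio was -0.71, the untreated sum was 411, K7's sum 1876 and the Krtdap level in the keratin range 689. The causes were not tested. The gate on keratin share gave no value, with 11 cells at or above 0.5. TMM scaling gave no value for levels within 1 library. Most Lce and fused S100 genes were too thinly counted for any ratio.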
